A study of Mus musculus with 16 samples.

Results

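The oxidative phosphorylation subunits are the proteins of the 4 respiratory complexes and of the ATP synthase. They were taken from the table of normalised counts by gene name, as the Nduf a, b, c, s and v families, Sdha to Sdhd, the Uqcr genes, the Cox4 to Cox8 isoforms, the Atp5 genes and the mitochondrial mt-Nd, mt-Co, mt-Cytb and mt-Atp genes. The rule found 92 of 16094 genes, of which 80 are nuclear and 12 are encoded in mitochondrial DNA. Of the nuclear members, assigned by name family, 38 were counted with complex I, 4 with complex II, 8 with complex III, 13 with complex IV and 17 with complex V, the ATP synthase. Ndufa4, known to associate with complex IV, and its relative Ndufa4l2 were counted with complex I by their names. The mitochondrially encoded members comprise 6 of complex I, 1 of complex III, 3 of complex IV and 2 of complex V. 1 pseudogene name was left out, and mt-Nd4l was not analysed here. Ndufb1-ps was kept because its name carries no number, although GENCODE M21 annotates it as a bidirectional promoter lncRNA and not as a protein-coding gene. Cox4i1, Ndufab1, Cyc1 and Cycs do not match the name patterns and were handled with the other respiratory genes. All 92 members passed the filter on low values, a mean of at least 5 normalised counts.

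The study measured polyadenylated RNA of tumours grown from B16R2L, a mouse melanoma cell line, by QuantSeq, an assay that sequences a tag at the 3′ end of each transcript. The cells carried either a non-targeting control hairpin (shCtrl) or a single hairpin directed at Mdk (shMdk), which encodes the growth factor midkine. When tumours reached 100 mm3, mice received the anti-PD1 antibody clone RMP1-14 at 10 mg/kg or the IgG2a control, 2 times per week for 2 weeks. The 4 groups of 4 tumours were shCtrl with IgG2a, shCtrl with anti-PD1, shMdk with IgG2a and shMdk with anti-PD1. All 16 tumours share the B16R2L parent and a hairpin vector. Host strain and age are not given in the sources used here. Since each hairpin is represented by 1 line, the loss of Mdk and other differences between the lines cannot be told apart.

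Complexes I and II pass electrons from NADH and succinate to ubiquinone, complex III hands them to cytochrome c, and complex IV (cytochrome c oxidase) reduces oxygen. Complexes I, III and IV pump protons, and complex V uses the gradient to make ATP. Complex II is wholly nuclear-encoded, whereas the others combine nuclear subunits, translated in the cytosol, with a few hydrophobic ones transcribed and translated inside the mitochondrion. Several nuclear subunits exist as tissue isoforms: Cox6a2, Cox7a1 and Cox8b are the forms of heart and skeletal muscle (Cox8b also of brown fat), with Cox6a1, Cox7a2 and Cox8a as their widely expressed partners, and Ndufa4l2 is a relative of Ndufa4 known as a hypoxia-responsive gene.

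The libraries held 5686405 to 8886334 reads. RNA integrity numbers, a score of RNA quality, ranged from 5.8 to 9.2 with a mean of 8.6 and were not assigned to tumours here. Mdk, the targeted gene, had 862 ± 248 normalised counts in shCtrl with IgG2a and 873 ± 206 in shCtrl with anti-PD1, against 199 ± 89.3 and 211 ± 106 in the corresponding shMdk groups (SD, n = 4). All 8 melanocyte markers examined were present, with summed counts of 157860 to 192287 in shCtrl with IgG2a, 140632 to 190408 in shCtrl with anti-PD1, 131996 to 153063 in shMdk with IgG2a and 114062 to 149812 in shMdk with anti-PD1. These sums did not overlap between the lines under IgG2a, although none of the 8 genes passed limma in any comparison. In 5 libraries, counts relative to each gene's mean over 16 tumours rose with the GC content of the last 300 bases of the transcripts. These were shCtrl IgG2a tumours 1 and 2, shMdk IgG2a tumours 3 and 4 and shMdk anti-PD1 tumour 1, and no shCtrl anti-PD1 library was among them. In 2 libraries, shCtrl anti-PD1 tumour 2 and shMdk IgG2a tumour 1, the RNA Gm42418 took 4.47% and 3.17% of reads. Tumours carry numbers in accession order only, so the numbers name tumours and pair none. The labels say that each condition was analysed in quadruplicate tumours. The limma p-values weigh a difference against the spread between tumours within groups, pooled over the 4 groups. No spread between lines with the same hairpin enters them. Values are counts per 3′ tag, which are not divided by transcript length.

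Promoters were examined for letters bound by regulators of respiratory genes (NRF1, GABPA and YY1), because nuclear subunits are known as their targets. Of the 80 nuclear members, 64 matched a promoter window of 300 bases (250 before the start and 50 after) in the RefSeq table (GRCm38.p6). The core of the NRF1 motif, GCATGCGC, was present on either strand in 10 of 64 windows (15.6%), against 2.80% of 27025 windows of all genes. The palindromic 10-base form, the core with 2 more bases at its 5′ end, was in 5 (7.81%) against 0.977%. The ETS motif CCGGAAGT was in 5 (7.81%) against 4.0%, the YY1 motif AAGATGGCG in 6 (9.38%) against 1.49%, and the E-box CACGTG in 5 (7.81%) against 7.24%. The NRF1 core, the ETS or the YY1 motif was present in 20 of 64 windows (31.25%) against 7.85% of all windows. These shares are descriptions, and a match is not a shown site. The 250 bases before the start are given here for Cox8b, the member that passed limma as higher in both shMdk groups. They are also given for its widely expressed partner Cox8a, which passed in no comparison. Cox6a1, the partner of the muscle isoform Cox6a2, and Atp5g2, a c-ring gene of the ATP synthase, are shown as members that hold the 10-base NRF1 form, marked in capitals. All are on the minus strand and are written 5′ to 3′ along the gene.
Cox8b, chr7:140900447-140900696: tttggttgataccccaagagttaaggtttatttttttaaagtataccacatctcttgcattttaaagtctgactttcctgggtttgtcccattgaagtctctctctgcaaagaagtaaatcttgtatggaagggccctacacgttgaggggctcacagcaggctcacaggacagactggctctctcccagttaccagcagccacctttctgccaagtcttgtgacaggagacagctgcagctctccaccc
Cox8a, chr19:7217617-7217866: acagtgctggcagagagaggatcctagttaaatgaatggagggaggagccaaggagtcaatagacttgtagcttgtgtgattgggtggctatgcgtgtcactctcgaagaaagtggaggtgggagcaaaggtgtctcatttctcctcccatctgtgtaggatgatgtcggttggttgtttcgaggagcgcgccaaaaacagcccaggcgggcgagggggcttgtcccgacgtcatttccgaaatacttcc
Cox6a1, chr5:115348959-115349208: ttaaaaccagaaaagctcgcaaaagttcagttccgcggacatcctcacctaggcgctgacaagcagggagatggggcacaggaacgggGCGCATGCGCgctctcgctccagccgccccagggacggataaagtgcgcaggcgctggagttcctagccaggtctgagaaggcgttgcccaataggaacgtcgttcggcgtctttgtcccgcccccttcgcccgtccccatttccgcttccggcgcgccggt
Atp5g2, chr15:102671048-102671297: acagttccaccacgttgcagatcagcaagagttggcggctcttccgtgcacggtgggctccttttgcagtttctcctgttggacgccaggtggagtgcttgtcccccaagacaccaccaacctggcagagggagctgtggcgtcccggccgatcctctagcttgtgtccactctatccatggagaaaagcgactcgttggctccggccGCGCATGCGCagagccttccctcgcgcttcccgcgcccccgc
The NRF1 match begins 162 bases before the start in Cox6a1 and 42 bases before it in Atp5g2. None of the 5 motifs was found in the 300-base Cox8b window, whereas the Cox8a window held 1 ETS match, which does not lie wholly within the 250 bases shown. GC content was 47.2% in the Cox8b stretch, 52.8% in Cox8a and 62.8% in both Cox6a1 and Atp5g2. Ndufa4l2 had no window in the table.

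The summed level of the nuclear subunits varied little between tumours, and that of the mitochondrially encoded subunits varied more. The 80 nuclear members summed to 220042 ± 12037 normalised counts in shCtrl with IgG2a, 215074 ± 2848 in shCtrl with anti-PD1, 217421 ± 11210 in shMdk with IgG2a and 220382 ± 14532 in shMdk with anti-PD1 (SD, n = 4). Over the 16 tumours this sum ran from 203033 to 240716, a 1.19-fold range, and all groups overlapped. The 12 mitochondrially encoded members summed to 253486, 315498, 277271 and 268053 in shCtrl with IgG2a and to 285749, 215761, 235789 and 262793 in shCtrl with anti-PD1. In shMdk with IgG2a the sums were 176709, 256295, 192098 and 208044, and in shMdk with anti-PD1 they were 220409, 298234, 190905 and 239038. The groups overlapped in every comparison, over a 1.79-fold range. Fewer cells of a type and less RNA per cell cannot be told apart in bulk tumours, and this holds for all levels given here.

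Divided by the nuclear sum of the same tumour, the mitochondrially encoded sum was 1.21, 1.33, 1.26 and 1.26 in shCtrl with IgG2a. It was 0.870, 1.20, 0.842 and 0.927 in shMdk with IgG2a, so the 2 groups lay next to each other without overlapping (means 1.26 ± 0.0508 and 0.959 ± 0.162). Under anti-PD1 they overlapped, with 1.34, 1.02, 1.09 and 1.21 in shCtrl against 1.02, 1.24, 0.875 and 1.16 in shMdk. The 3 lowest ratios in shMdk with IgG2a belonged to the Gm42418-rich tumour 1 and the GC-sloped tumours 3 and 4. The shCtrl IgG2a tumours 1 and 2, also GC-sloped, had ratios of 1.21 and 1.33. Under IgG2a the log2 ratio of the mean mitochondrially encoded sums, shMdk over shCtrl, was -0.42 with all tumours. It ran from -0.535 to -0.348 without 1 tumour, the smallest difference being without the Gm42418-rich shMdk tumour 1. Removing the GC-sloped libraries alone left sums of 176709 and 256295 in shMdk and 277271 and 268053 in shCtrl. The ratio was -0.0893 without both kinds of library, which left 1 shMdk and 2 shCtrl tumours. Melanocyte marker sums were also lower in shMdk under IgG2a without overlap (above), and leukocyte marker sums were higher (below). The part of these libraries and cell types in the ratio was not tested, and no test was made of sums over the members. Without mt-Nd4, the most abundant member, the mitochondrially encoded sums ranged 1.65-fold over the 16 tumours and averaged 155504 ± 28526 in shCtrl with IgG2a, 166813 ± 12746 in shCtrl with anti-PD1, 134289 ± 11612 in shMdk with IgG2a and 155016 ± 28260 in shMdk with anti-PD1. As a share of all reads, mitochondrially encoded members took from 2.34% (Wilson 95% interval 2.33 to 2.35) in shMdk IgG2a tumour 1 to 4.03% (4.02 to 4.05) in shMdk anti-PD1 tumour 2. Nuclear members took from 2.48% to 3.26%. The intervals cover the counting error of reads within 1 library only, and the reads carry no molecular identifiers here.

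**Figure D1:**
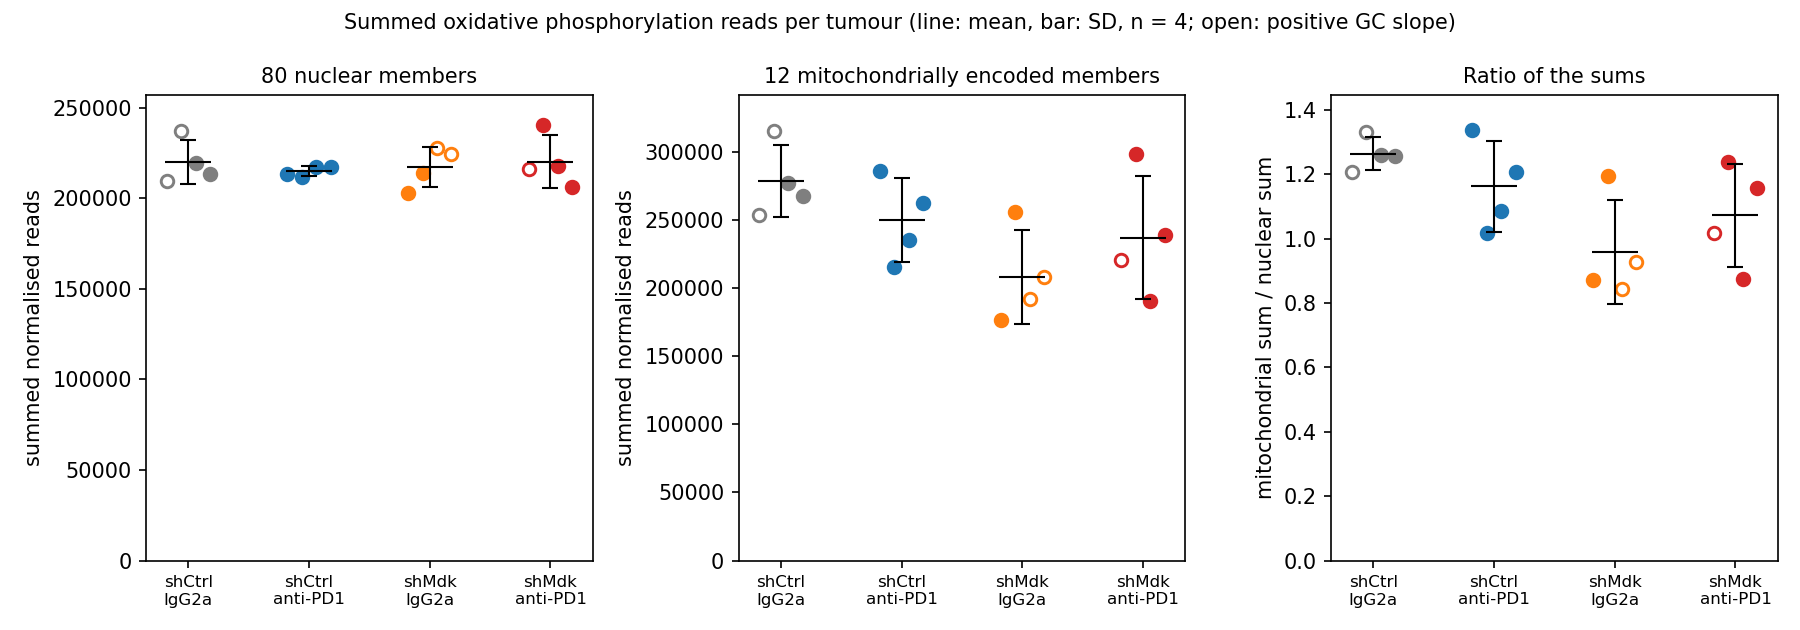
Summed normalised counts of the 80 nuclear members (left), the 12 mitochondrially encoded members (middle) and their ratio (right) in each of 16 tumours, with group mean and SD (n = 4), open points marking the 5 GC-sloped libraries. The nuclear sums lie between 203033 and 240716, while the mitochondrially encoded sums spread from 176709 to 315498.

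Among the mitochondrially encoded members, 3 genes of the heavy-strand transcript made up most of the reads. mt-Nd4, a membrane subunit of complex I at chrM:10167-11544, took a median of 36.8% of the mitochondrially encoded reads (20.4% to 53.5% over tumours). mt-Cytb, the cytochrome b of complex III at chrM:14145-15288, took 20.9% (8.19% to 26.1%), and mt-Nd1, a complex I subunit at chrM:2751-3707, took 20.4%. The lowest was mt-Nd6, the one mitochondrial subunit encoded on the opposite strand (chrM:13552-14070, minus), at 0.0152%. In mean normalised counts per 3′ tag the order was mt-Nd4 (90603), mt-Nd1 (50998), mt-Cytb (46696), mt-Nd2 (22697), mt-Co3 (9719), mt-Co1 (8447), mt-Atp6 (7276), mt-Nd5 (4578), mt-Atp8 (1321), mt-Nd3 (665), mt-Co2 (467) and mt-Nd6 (41.6). mt-Nd1 and mt-Cytb overlapped widely over tumours (39939 to 69867 against 18848 to 68476), as did mt-Co3, mt-Co1 and mt-Atp6. mt-Nd6 rested on few reads, 22 to 68 per library.

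mt-Nd4 varied most in counts. Its values were 135560, 166506, 102444 and 87785 in shCtrl with IgG2a and 104476, 44048, 84436 and 99882 in shCtrl with anti-PD1. They were 37465, 109072, 71883 and 77571 in shMdk with IgG2a and 90048, 103479, 50328 and 84667 in shMdk with anti-PD1. All groups overlapped. The 2 lowest values belonged to the 2 libraries high in Gm42418, and the 2 highest to the GC-sloped shCtrl IgG2a tumours 1 and 2. Between the lines under IgG2a the log2 difference was -0.79 ± 0.35 (SE; limma, adjusted p = 0.450), and without both kinds of library it was 0.20.

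mt-Cytb followed the GC-sloped libraries. It had 20767, 35254, 68476 and 68146 counts in shCtrl with IgG2a, 67986, 56410, 51134 and 52972 in shCtrl with anti-PD1, 40839, 45280, 28352 and 18848 in shMdk with IgG2a, and 32526, 59487, 41169 and 59491 in shMdk with anti-PD1. The 5 GC-sloped libraries (18848 to 35254) lay below the other 11 (40839 to 68476). It was the one mitochondrially encoded member of 12 for which the 2 sets of libraries did not overlap.

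The other mitochondrially encoded members overlapped between the groups in every comparison. mt-Nd1 stayed within 39939 to 69867, a 1.75-fold range, and mt-Nd5, the distal proton-pumping subunit of complex I, within 1.77-fold. mt-Nd2 ranged 3.03-fold, from 11086 in shMdk IgG2a tumour 1, again the library high in Gm42418, to 33556 in shMdk anti-PD1 tumour 2. mt-Co1, the catalytic subunit of cytochrome c oxidase, was highest in the other such library, shCtrl anti-PD1 tumour 2 (14110, against 5031, 6526 and 8173 in its group). In that same tumour the mitochondrial ribosomal RNA mt-Rnr2 had 301607 counts, against 75843 to 147624 in the other 15. The part of Gm42418-rich libraries in these values was not tested.

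2 small shifts in mitochondrially encoded members had an unadjusted p under 0.05 under anti-PD1 between the lines without passing the adjusted threshold. mt-Nd3, a small complex I subunit, had 392, 695, 459 and 450 counts in shMdk with anti-PD1 and 759, 584, 749 and 804 in shCtrl with anti-PD1. Its values overlapped between the 2 groups, with a log2 difference of -0.56 ± 0.19 (limma, adjusted p = 0.107). mt-Nd3 was called in the fit without both the GC-sloped and the Gm42418-rich libraries (below). mt-Atp6, the proton-channel subunit of the ATP synthase, had 4015, 6111, 5848 and 7725 counts in shMdk with anti-PD1 and 9469, 8825, 7898 and 7521 in shCtrl with anti-PD1. The difference was -0.54 ± 0.21 (adjusted p = 0.161), with 1 shMdk tumour inside the shCtrl range. Both genes share their 3′ ends with nuclear copies of mitochondrial DNA.

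Reads of several mitochondrial genes can be assigned to more than 1 gene model. Over the last 300 bases, 100% of the 50-base words of mt-Co1 and of mt-Co2 occur in other annotated genes, as do 99.6% of those of mt-Co3 (Gm28437), 98.8% of mt-Atp6 (Gm10925 among others) and 98.8% of mt-Nd3 (Gm28438). mt-Nd2 shares 31.9% and mt-Nd5 1.99%. mt-Nd1, mt-Nd4, mt-Nd6, mt-Cytb and mt-Atp8 share none. The levels of the 5 almost fully shared genes are therefore uncertain, since the counting could split or drop such reads. Among nuclear members, 59 of 80 share no word, while Cox7c (73.3%), Atp5l (70.1%), Ndufs5 (54.6%) and Ndufs3 (53.0%) share more than 50%.

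**Figure D2:**
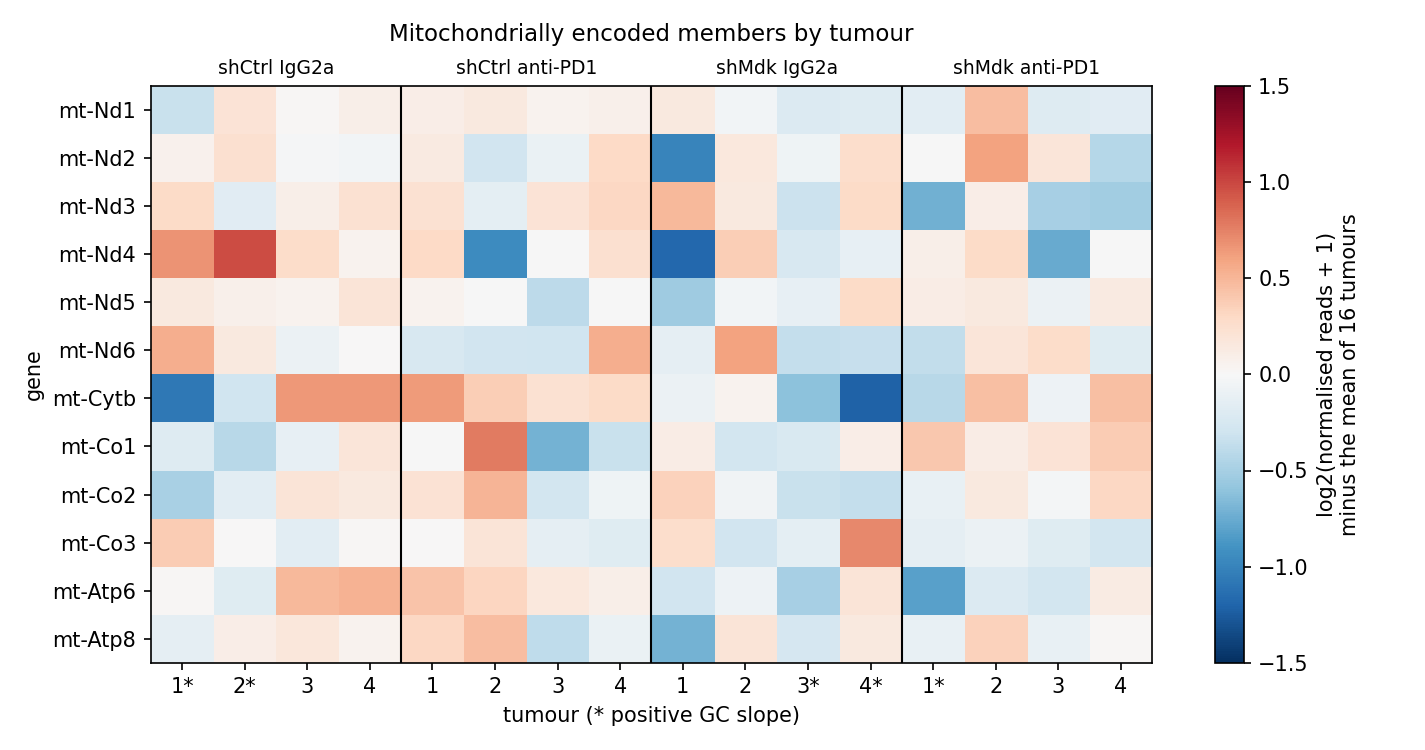
Log2(normalised counts + 1) of each mitochondrially encoded member (rows) in each tumour (columns, grouped, an asterisk marking the 5 GC-sloped libraries) minus the gene's mean over 16 tumours, from blue (lower) to red (higher). mt-Nd4 and mt-Cytb hold the darkest cells, with mt-Nd4 low at 37465 in shMdk IgG2a tumour 1 and mt-Cytb low at 18848 in shMdk IgG2a tumour 4.

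The nuclear sums of complexes I, II, III and V overlapped between the groups in all 4 comparisons, and that of complex IV in all but 1. Complex I members summed to 58573 to 72821 counts per tumour, a 1.24-fold range. Ndufb8, an accessory subunit, had the highest mean of the complex (4132) and stayed within 3546 to 4726. Ndufs1, which carries iron-sulfur clusters, stayed within 1096 to 1599, and Ndufv1, which binds NADH and the flavin, within 977 to 1771. The lowest was Ndufa4l2, at a mean of 29.0.

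Complex II sums ranged 1.67-fold, from 7819 to 13058, and rested mostly on Sdhb, the iron-sulfur subunit (mean 7035). The flavoprotein Sdha was steadier (1937 to 2916). Sdhd, which anchors the complex in the membrane, had the largest within-group spread of the nuclear members, an SD of 1.47 in log2 counts. It had 2.25, 9.59, 87.5 and 71.1 counts in shCtrl with IgG2a, 75.4, 31.5, 66.9 and 25.2 in shCtrl with anti-PD1, 11.1, 14.6, 19 and 9.46 in shMdk with IgG2a and 2.91, 19.6, 14.4 and 59.2 in shMdk with anti-PD1. Its range over the tumours was 38.9-fold, below the 51.0-fold of Cox8b, and at a mean of 32.5 it stood far below its partner subunits. A low tag count at 1 3′ end does not measure other ends of the gene. Its differences between groups did not pass the test in any comparison, and their sign depended on the libraries used.

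Complex III sums ran from 22787 to 29244. Uqcrq, a small accessory subunit, was its highest member (mean 5991). The core protein Uqcrc1 stayed within 1408 to 2097, while the Rieske iron-sulfur protein Uqcrfs1 ranged from 349 to 910 and was lower in the GC-sloped libraries.

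Complex IV sums were 51266 ± 3061 in shCtrl with IgG2a, 51074 ± 2471 in shCtrl with anti-PD1, 51178 ± 3699 in shMdk with IgG2a and 56860.0 ± 3792 in shMdk with anti-PD1. The last group (53693 to 62360) did not overlap with shCtrl under anti-PD1 (47721 to 53491), by a narrow margin. Cox7a2 (mean 10836) and Cox6c (8597), both small accessory subunits, were its highest members. Cox5a, Cox5b and Cox6b1, other widely expressed subunits, had means of 3642, 4659 and 3465. The muscle isoforms Cox6a2 (10.8), Cox8b (27.1) and Cox7a1 (66.1) were 3 of the 7 lowest of all members.

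Complex V sums kept within 60235 to 72925. Atp5g3, which encodes the c-ring subunit, was highest (mean 10760) and varied 3.84-fold, whereas Atp5o, part of the peripheral stalk, had a mean of 7646 and varied 1.41-fold. The other c-ring genes Atp5g1 and Atp5g2 had means of 2644 and 647. The catalytic subunit Atp5b ranged from 2954 to 7913 and the alpha subunit Atp5a1 from 3003 to 5775.

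The within-group spread of a member, as SD of log2 counts, had a median of 0.24 over nuclear and 0.31 over mitochondrially encoded members. Over all 14672 genes tested it was 0.38, and over genes with a mean of at least 500 it was 0.25. It exceeded 0.5 in 15 of 80 nuclear members (18.75%), against 35.6% of all genes tested. Among genes with a mean of at least 500, it exceeded 0.5 in 9 of 74 nuclear members (12.2%), against 7.54% of all such genes. It did so in 2 of 12 mitochondrially encoded members, mt-Cytb and mt-Nd4.

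Many of the variable members differed between the 5 GC-sloped libraries and the other 11. The 2 sets did not overlap for 12 nuclear members that were lower, 8 that were higher and mt-Cytb. Over all genes tested 4.57% were lower in this way and 2.09% higher, 6.66% in all. The slope was computed over all genes, members included, so these counts are a description without a test. The largest gap was in Cox7c, a small subunit of cytochrome c oxidase, with 450 to 896 counts in the 5 libraries and 2051 to 5845 in the others (log2 difference -2.62). The lncRNA-annotated Ndufb1-ps, the complex I accessory subunits Ndufa1 and Ndufb3 and the complex IV associated Ndufa4 followed at -1.89, -1.81, -1.78 and -1.67, and Sdhc, a membrane anchor of complex II, at -1.59. Atp5g3 (-1.0), Uqcrfs1 (-0.85), Atp5b (-0.59), Ndufv2 (-0.54), Ndufs5 (-0.36) and Uqcrc2 (-0.24) were lower by less.

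The 8 higher members were Atp5k (0.66), Ndufa2 (0.64), Cox7a2l (0.53), Cox7a2 (0.52), Ndufs6 (0.49), Ndufa12 (0.41), Atp5j2 (0.38) and Atp5l (0.37). Atp5k, a small subunit of the ATP synthase membrane part, had 5865 to 9508 counts in the 5 libraries and 3696 to 5582 in the others. Median GC content of the last 300 bases was 45.3% over nuclear members (29.3% to 63.7%), 34.8% over mitochondrially encoded ones and 42.7% over all genes tested. It ran from 29.3% (Uqcrfs1) to 49.7% (Ndufs5) over the 12 lower nuclear members. Over the 8 higher ones it ran from 39% (Atp5l) to 52.3% (Atp5k), so the 2 ranges overlapped. mt-Cytb stood at 37.7%, within the 31.7% to 41.3% of the mitochondrially encoded members. Since 4 of these 5 libraries received IgG2a and none is shCtrl with anti-PD1, the library property is unevenly spread over the groups. In Cox7c, for example, the difference of anti-PD1 from IgG2a in shCtrl was 1.35 with all tumours and -0.21 without the 5 libraries.

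**Figure D3:**
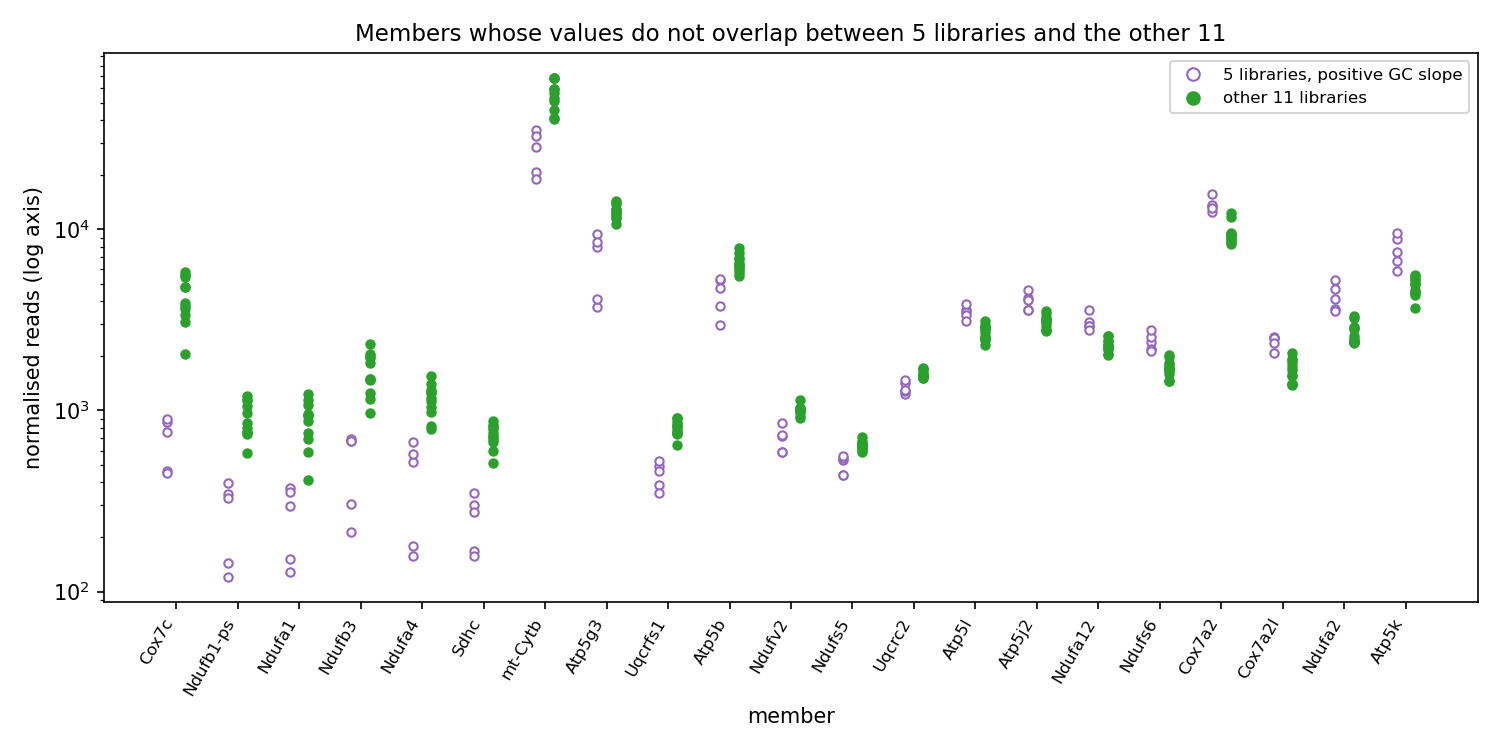
Normalised counts (log axis) of the 21 members whose values do not overlap between the 5 libraries with a positive GC slope (open) and the other 11 (filled), ordered by the log2 difference. Cox7c stands lowest at 450 to 896 against 2051 to 5845, and Atp5k is at the opposite end with 5865 to 9508 against 3696 to 5582.

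Between the lines under IgG2a, which asks what accompanies the Mdk hairpin without PD1 blockade, 1 of 92 members passed limma at an adjusted p under 0.05 and was higher in shMdk, Cox8b. Of all genes tested 1.74% passed, 1.63% as higher, so the members' share was near the background. The groups did not overlap for 2 members, both higher (Cox8b and Cox6a2), against 6.09% of all genes (4.16% as higher). The median log2 difference was 0.01 over nuclear and -0.21 over mitochondrially encoded members, against -0.01 over all genes. 74 of 80 nuclear members differed by less than 0.5 on the log2 scale in either direction, and 9 of 12 mitochondrially encoded members were on the negative side without 1 of them passing the test.

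Between the lines under anti-PD1, 2 of 92 members passed, both higher in shMdk, Cox8b and Ndufa4l2. In this comparison 5.93% of all genes passed, 4.93% as higher. Values did not overlap for 4 members that were higher (Cox8b, Ndufa4l2, Cox6a1, Cox6c) and 3 that were lower (Atp5g2, Atp5h, Atp5b), against 13.4% of all genes (8.23% as higher and 5.2% as lower). The medians were 0.01 over nuclear, -0.03 over mitochondrially encoded members and -0.02 over all genes. At an unadjusted p under 0.05 there were 11 members here, against 17.8% of all genes, and 4 under IgG2a, against 9.69%.

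Anti-PD1 against IgG2a within a line called no member. In shCtrl, limma called none of 92 members and none of all genes (0%), with 1 member (Cox8b) and 556 genes (3.79%) at an unadjusted p under 0.05, and edgeR and DESeq2 also called 0 members (0 and 7 of all genes). In shMdk, limma called 0 of 92 members with 7 at an unadjusted p under 0.05 (12.4% of all genes), while 0.0341% of all genes passed. There edgeR and DESeq2 called 0 members as well (8 and 244 of all genes), and 2 members did not overlap, both lower (Ndufb7 and Sdhb, against 4.1% of all genes). The medians in shCtrl were -0.02 over nuclear, 0.03 over mitochondrially encoded members and 0.01 over all genes, and those in shMdk were 0.00, 0.18 and 0.03. The difference of the anti-PD1 effects between the lines called 0 members and 0% of all genes, with 2 members (Ndufa4l2 and mt-Nd3) and 3.45% of all genes at an unadjusted p under 0.05. edgeR and DESeq2 called 0 members there too. The comparisons share groups, so their values are not independent of each other.

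**Figure D4:**
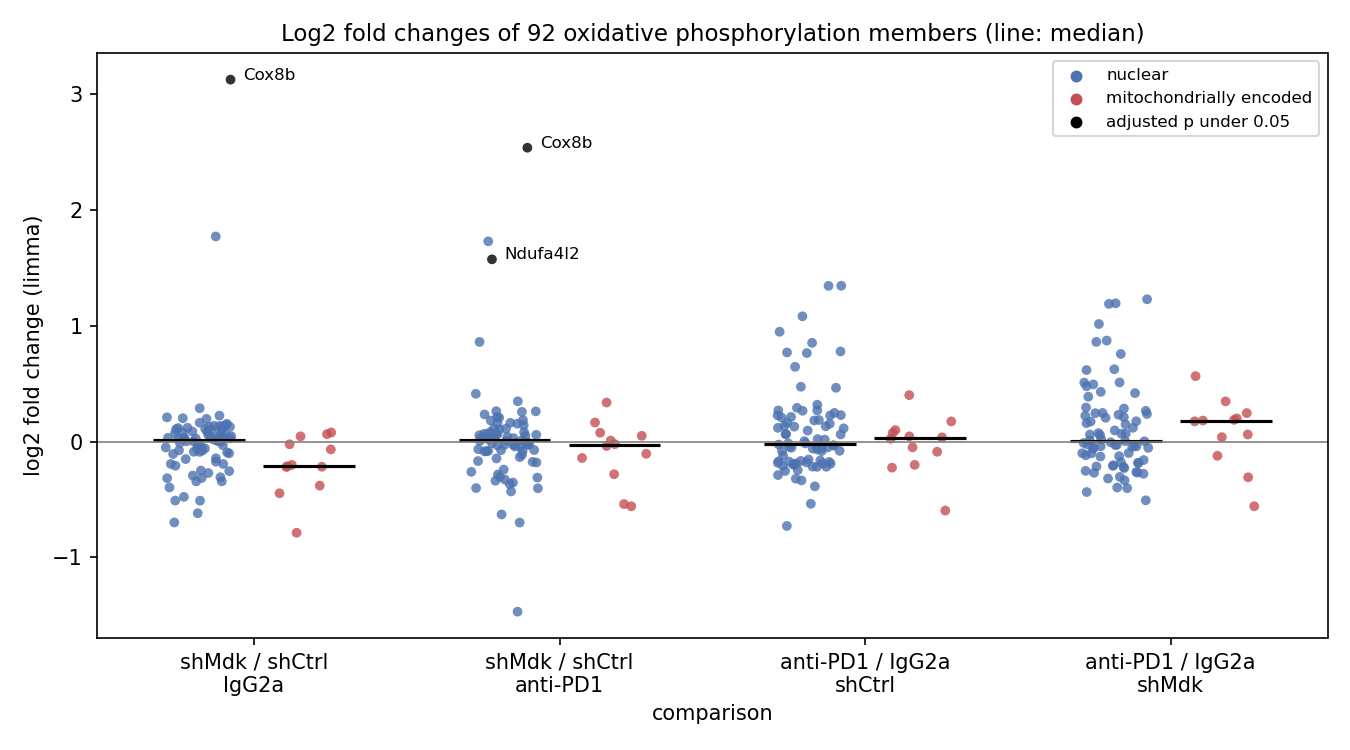
Log2 difference (limma) of each of the 92 members in 4 comparisons, nuclear in blue and mitochondrially encoded in red, with black points for an adjusted p under 0.05 and lines for the medians. The bulk lies near 0 in all 4, Cox8b stands at 3.13 and 2.54 in the comparisons of the lines, and Ndufa4l2 at 1.57 under anti-PD1.

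Cox8b is the muscle and brown fat isoform of the smallest cytochrome c oxidase subunit (chr7:140898945-140900446, minus strand, GRCm38). Cox8b was the one member that passed limma as higher in shMdk tumours under both antibodies. It had 4.50, 3.20, 1.90 and 1.85 counts in shCtrl with IgG2a and 82.3, 28.2, 18 and 23.1 in shMdk with IgG2a. Under anti-PD1 it had 4.60, 6.0, 8.37 and 20.7 in shCtrl and 94.2, 57.8, 41.5 and 37.2 in shMdk. Every shMdk tumour lay above every shCtrl tumour that received the same antibody. The log2 difference was 3.13 ± 0.50 under IgG2a (SE; limma, adjusted p = 0.00363) and 2.54 ± 0.50 under anti-PD1 (adjusted p = 0.00500). The exact permutation p was 0.0286 in each, the smallest that 70 arrangements of 4 against 4 allow. The call held in 8 of 8 fits that left out 1 tumour, in both comparisons. It was lost under IgG2a when the GC-sloped and the Gm42418-rich libraries were both removed (3.34, adjusted p = 0.0595), which left 1 shMdk IgG2a tumour. Cox8b stayed a scarce transcript, with 447 reads in all libraries together, and its widely expressed partner Cox8a, promoter shown above, had a mean of 7018.

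In shCtrl tumours the Cox8b values under anti-PD1 also lay above those under IgG2a without overlapping, but the difference of 1.35 ± 0.50 did not pass limma (adjusted p = 0.798). 1 member of 92 was non-overlapping and higher there, against 0.981% of all genes. The difference of the anti-PD1 effects between the lines was -0.59 ± 0.71 (adjusted p = 1.0).

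Ndufa4l2 (chr10:127514967-127517154, plus strand) was higher in shMdk under anti-PD1. Its counts were 67.0, 46.0, 33.9 and 49.9 in shMdk with anti-PD1 and 19.3, 18, 11.2 and 14.4 in shCtrl with anti-PD1, which did not overlap. Under IgG2a it had 29.3, 17.1, 19 and 48.9 counts in shCtrl and 25.6, 13.6, 13.3 and 36.8 in shMdk, which did. The log2 difference under anti-PD1 was 1.57 ± 0.38 (limma, adjusted p = 0.0192; exact permutation p = 0.0286, the smallest possible). The call held in 5 of 8 fits without 1 tumour. It was lost without shCtrl anti-PD1 tumour 3 (adjusted p = 0.0605), shCtrl anti-PD1 tumour 4 (0.0529) or shMdk anti-PD1 tumour 1 (0.0832), the last being the GC-sloped library of its group, and without all 5 GC-sloped libraries it was 1.42 (adjusted p = 0.0578). The difference of the anti-PD1 effects between the lines was 1.92 ± 0.54 and did not pass (adjusted p = 1.0), so a larger effect of the hairpin under anti-PD1 than under IgG2a was not shown.

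Of the other muscle isoforms, Cox6a2 had 5.63, 5.33, 1.90 and 1.85 counts in shCtrl with IgG2a and 11.1, 8.19, 15.2 and 25.2 in shMdk with IgG2a, which did not overlap. Under anti-PD1 it had 6.44, 6.0, 3.72 and 1.80 in shCtrl and 21.4, 41.1, 13.6 and 5.08 in shMdk, which did. The differences of 1.77 ± 0.57 (limma, adjusted p = 0.178) and 1.73 ± 0.57 (adjusted p = 0.0902) did not pass, though DESeq2 called the second (adjusted p = 0.0194). Cox6a2 rested on 176 reads in all. Cox7a1 had group means of 61.2 ± 29.0, 48.5 ± 21.3, 61.2 ± 18 and 93.5 ± 55.7 in the order shCtrl IgG2a, shCtrl anti-PD1, shMdk IgG2a and shMdk anti-PD1, all overlapping.

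The widely expressed partners did not pass in any comparison. Cox8a had group means of 6844 ± 711, 6542 ± 389, 7356 ± 541 and 7330 ± 692 in the same order. Cox6a1 had 7471, 7545, 5826 and 5866 counts in shMdk with anti-PD1 and 5081, 4840, 4942 and 5047 in shCtrl with anti-PD1, which did not overlap, with a difference of 0.41 ± 0.12 just outside the threshold (limma, adjusted p = 0.0586). It passed with total-read scaling (adjusted p = 0.0158) and with DESeq2 (adjusted p = 0.00422). Cox7a2 (12513 to 15598 in the GC-sloped libraries, 8285 to 12296 in the others) and Ndufa4 (156 to 668 against 792 to 1542) separated the GC-sloped from the other libraries. Without the 5 libraries, Ndufa4 was lower in shMdk under IgG2a by -0.78 ± 0.15 (adjusted p = 0.0464) over 2 against 2 tumours. Atp5g2, which holds the NRF1 motif shown above, had 317, 454, 552 and 697 counts in shMdk with anti-PD1 and 807, 818, 792 and 740 in shCtrl with anti-PD1, with a difference of -0.70 ± 0.24 (adjusted p = 0.105).

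**Figure D5:**
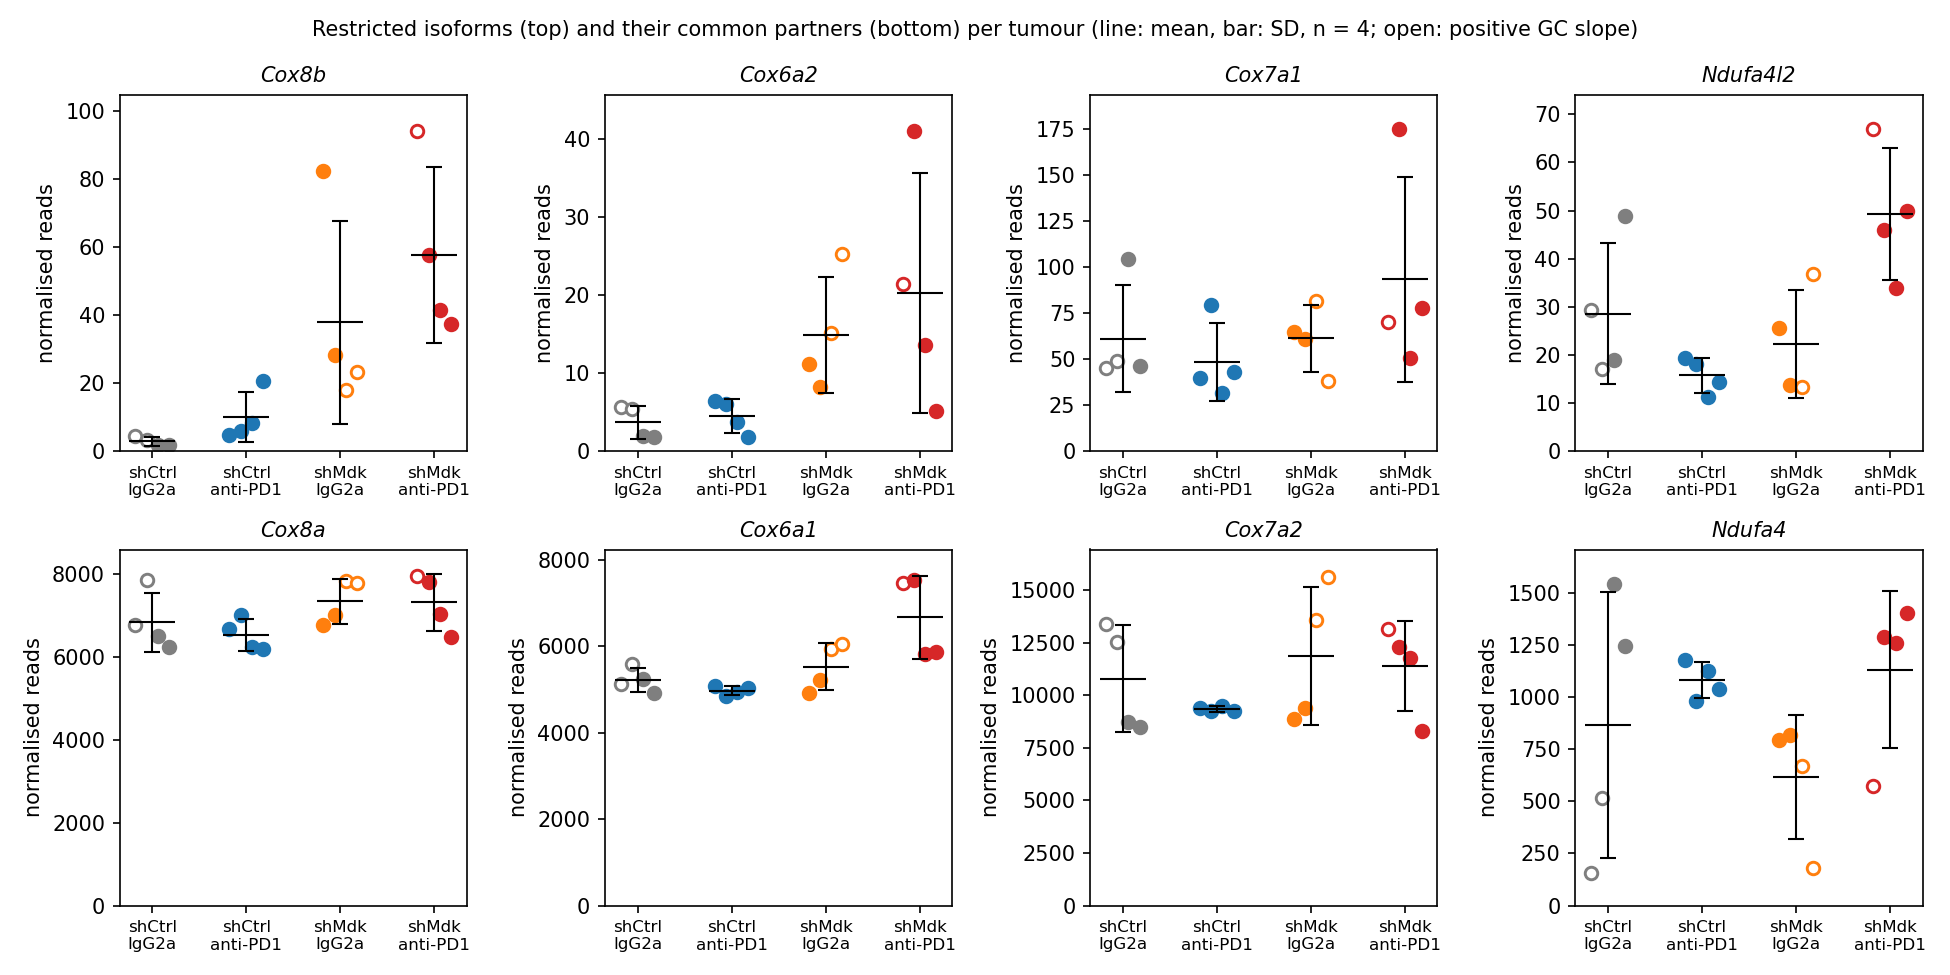
Normalised counts per tumour of the tissue-restricted isoforms (top row, Cox8b, Cox6a2, Cox7a1, Ndufa4l2) and their widely expressed partners (bottom row, Cox8a, Cox6a1, Cox7a2, Ndufa4), with group mean and SD (n = 4) and open points for GC-sloped libraries. Cox8b is at 18 to 94.2 in the 8 shMdk tumours and at 1.85 to 20.7 in the 8 shCtrl tumours, while Cox8a stays between 6211 and 7974.

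Markers of other cell types were read beside these isoforms. Of 12 skeletal muscle markers 4 were among the genes of the table (Ckm, Mylpf, Tnni2 and Actn3), and the others, such as Acta1 and Myh4, were not. None of the 4 passed in any comparison, and their summed counts were 321 to 386 in shCtrl with IgG2a, 364 to 640 in shCtrl with anti-PD1, 308 to 561 in shMdk with IgG2a and 376 to 849 in shMdk with anti-PD1, overlapping between the lines under both antibodies. 1 tumour, shMdk anti-PD1 tumour 2, gave the highest of these sums. It had 121 counts of Tnni2, a fast-muscle troponin (at most 17.1 in the other 15), and 169 of Mylpf, a fast-muscle myosin light chain (at most 70.2 in the others). The same tumour held the highest Cox6a2 (41.1) and Cox7a1 (175) values, and without it the Cox6a2 difference under anti-PD1 was 1.29 (limma, adjusted p = 0.287). Its Cox8b count of 57.8 was exceeded in 2 tumours. Ckm, the muscle creatine kinase, had 297 ± 28.6, 405 ± 128, 354 ± 108 and 424 ± 91.5 counts. Of 8 adipocyte markers 3 were in the table (Adipoq, Fabp4 and Cidea), with none passing. Leukocyte markers moved with the hairpin: 7 of 13 passed limma as higher in shMdk under IgG2a and 11 of 13 under anti-PD1. Of all genes, 1.63% and 4.93% passed as higher in these comparisons. Their summed counts were 672 to 1610 in shCtrl with IgG2a, 570 to 2709 in shCtrl with anti-PD1, 2916 to 6951 in shMdk with IgG2a and 5937 to 12432 in shMdk with anti-PD1. Fibroblast markers (3 of the 5 in the table) and endothelial markers (3 of 6) passed limma as higher in shMdk under anti-PD1, against 4.93% of all genes. Ndufa4l2 passed in the same comparison, and neither list had a called member under IgG2a. The fibroblast sums were 413 to 2371 in shCtrl with anti-PD1 and 1488 to 13211 in shMdk with anti-PD1. The part of these cell types in the values of Cox8b, Ndufa4l2, Cox6a2 and Cox7a1 was not tested.

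Few of the surrounding genes of respiration passed the test. Among other respiratory subunits and carriers, 17 genes tested, no gene passed limma in any comparison. Cox4i1, the main isoform of a nuclear-encoded cytochrome c oxidase subunit, had group means of 5228 ± 449, 4897 ± 123, 5714 ± 911 and 5616 ± 824. No gene passed among 48 assembly factors, 30 genes of mitochondrial transcription and RNA handling, 10 regulators of mitochondrial biogenesis, 18 genes of the citrate cycle and pyruvate entry, and 8 mitochondrial rRNAs and tRNAs tested. Of all genes, 1.74% passed between the lines under IgG2a and 5.93% under anti-PD1. Under anti-PD1 between the lines, the smallest p-values of these lists belonged to the mitochondrial isoleucine tRNA mt-Ti (2.17 ± 0.67, limma, adjusted p = 0.0678), Ecsit, a complex I assembly factor (-1.01 ± 0.32, adjusted p = 0.0784), Mterf4, which acts on mitochondrial ribosomes (-0.66 ± 0.22, adjusted p = 0.0931), and Fastk (0.41 ± 0.14, adjusted p = 0.0941). Coq7, an enzyme of ubiquinone synthesis, had the smallest of the subunits and carriers (-0.47 ± 0.16, adjusted p = 0.113). Ppargc1a, a coactivator of mitochondrial biogenesis, differed by -0.44 ± 0.23 under IgG2a and -0.53 ± 0.23 under anti-PD1 (adjusted p = 0.571 and 0.221).

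Mitochondrial ribosomal proteins, which build the ribosome that translates the mitochondrially encoded subunits, were the one list of these with called genes. They were 2 of 77, both lower in shMdk under anti-PD1. Of all genes 0.995% passed there as lower and 5.93% in either direction. Mrpl20 had 381, 402, 419 and 373 counts in shMdk with anti-PD1 and 681, 719, 700 and 651 in shCtrl with anti-PD1, a difference of -0.80 ± 0.14 (limma, adjusted p = 0.00194). Mrpl52 had 891, 761, 670 and 923 against 1195, 1145, 1287 and 1454, a difference of -0.65 ± 0.15 (adjusted p = 0.0144). Neither gene's groups overlapped, against 5.2% of all genes that were lower in this way. The list's median difference was -0.18, against -0.02 over all genes. For anti-PD1 against IgG2a in shMdk the list's median was -0.16, against 0.03 over all genes, and no gene of the list passed. There 20 of 77 had an unadjusted limma p under 0.05, against 12.4% of all genes.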

How the data were processed

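Per the submitters' processing notes, the genome build was GRCm38 (mm10) and the tools included HTSeq, DESeq2, TopHat2 2.0.10 and Bowtie 1.0.0, with no roles given. The authors deposited 1 table of a normalised signal, here called normalised counts, for 16 tumours. Multiplied by size factors recovered from its low values, 100% of values came out as whole reads within 0.001, and 0 columns were left unused. Library sizes were 5686405 to 8886334 reads. Differences were fitted with limma 3.58.1 (R 4.3.3) on log2(normalised count + 1) over all 16 tumours, for 14672 genes with a mean of at least 5, with Benjamini-Hochberg adjustment over all of them and a threshold of 0.05. Log2 differences are on that scale and understate those of low genes. edgeR 4.0.16 (quasi-likelihood) and DESeq2 1.42.0 were run on the recovered reads as alternatives. For shMdk against shCtrl edgeR called 251 genes under IgG2a and 866 under anti-PD1, limma 255 and 870, and DESeq2 449 and 1310. The fit was tested on simulated data with the same dispersion for all genes and no GC slope or Gm42418 differences between libraries. That test cannot tell how the fit behaves with such libraries.

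Members and lists were chosen with earlier results of these data known. Named genes are the mitochondrially encoded members, members passing any comparison, the 3 largest rises and falls in each, chosen nuclear subunits of each complex, restricted isoforms with their partners, the highest member of each complex, Mdk, and from other lists the called genes or those with the smallest p. Further members were named after their values were seen. Gene positions and the last 300 bases come from GENCODE M21 (GRCm38) and promoters from RefSeq. Each gene's mean log2 count over 16 tumours was subtracted before the slope on GC was fitted, so slopes are relative to the other libraries. A library was called GC-sloped where these values rose by over 0.05 per 10 percentage points of GC. Slopes ran from 0.0874 to 0.186 in the 5 libraries and from -0.114 (shCtrl IgG2a tumour 3) to -0.00586 in the other 11. The other libraries are therefore not free of a slope. Libraries with over 3% Gm42418 reads were also set apart.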

Additional observations from a re-analysis of the deposited data

Results flagged for a closer look

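Of 172 groups of 4 tumours examined over the named members, their sums and Mdk, 12 (6.98%) held 1 tumour whose distance from the nearest other exceeded the 95% limit of Dixon's test. Chance gives about 1 in 20. In shMdk with IgG2a, Cox8b was high in tumour 1 (82.3, others 18 to 28.2), Atp5b was low in tumour 4 (2954, others 5313 to 5710) and Sdhb was high in tumour 4 (9105, others 7209 to 7423). In shMdk with anti-PD1, Ndufa4 was low in tumour 1 (572, others 1260 to 1402), Sdha was low in tumour 4 (2110, others 2641 to 2713), mt-Nd1 was high in tumour 2 (69867, others 44265 to 45356) and mt-Nd5 was low in tumour 3 (4278, others 4909 to 5004). In shCtrl with anti-PD1, Cox7b was low in tumour 2 (2493, others 4367 to 4736), Ndufb7 was high in tumour 2 (1446, others 996 to 1046), mt-Nd5 was low in tumour 3 (3455, others 4505 to 4713) and mt-Nd6 was high in tumour 4 (59.3, others 32.5 to 34.0). In shCtrl with IgG2a, Cox7a1 was high in tumour 3 (105, others 45.0 to 49.0). The high Cox8b tumour is also the Gm42418-rich library of its group, and without that tumour the difference between the lines under IgG2a was 2.68 (limma, adjusted p = 0.0150).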

How the results depend on the processing

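Members called between the lines under IgG2a numbered 1, in all 8 fits without 1 tumour too. There were 0 with a mean of at least 50, which removes Cox8b from the test, 2 without the GC-sloped libraries (Cox8b and Ndufa4) and 0 without these and the Gm42418-rich libraries, an alternative chosen after seeing the data that left 1 shMdk IgG2a tumour, assumed to vary like the others. Under anti-PD1 they numbered 2. There were 0 with a mean of at least 50, which removes both. DESeq2 called 4 (adding Cox6a1 and Cox6a2), and 1 remained without the GC-sloped libraries (Cox8b). Without both kinds of library, which left 1 shMdk IgG2a tumour, the calls were Cox8b, Ndufa4l2, Ndufa5, mt-Co1 and mt-Nd3. Fits without 1 tumour called 1 to 4. Under anti-PD1 between the lines, total-read scaling moved the nuclear median to 0.0934 and the log2 ratio of nuclear sums to 0.117, and leaving mitochondrially encoded genes out of the total gave 0.0872 and 0.112. For anti-PD1 in shMdk, the nuclear median was 0.0779 without the GC-sloped libraries. The mitochondrially encoded median there was 0.00804 without the Gm42418-rich libraries, 0.0226 without both kinds and 0.00804 to 0.231 without 1 tumour. The mitochondrially encoded median of anti-PD1 in shCtrl was -0.10 without both kinds. For the difference of the anti-PD1 effects it was 0.353 without the GC-sloped libraries and 0.0359 to 0.244 without 1 tumour. Averaging log2 values over members in place of summing gave 0.0811 (anti-PD1 in shCtrl) and 0.104 (anti-PD1 in shMdk) for nuclear members and -0.198 for mitochondrially encoded ones between the lines under IgG2a. Without both kinds of library, the ratios of mitochondrially encoded sums were -0.0893 between the lines under IgG2a and -0.0785 for anti-PD1 in shMdk. Signs turned for members that had not passed. Sdhd under the difference of effects went from -0.85 to 0.59 (edgeR), 0.61 (DESeq2), 1.76 (without the GC-sloped libraries) and 1.42 (without both kinds), and ran from -1.53 to 0.0606 without 1 tumour, the highest without shCtrl IgG2a tumour 1. Between the lines under IgG2a it ran from -1.53 to 0.0572 without 1 tumour, the highest without shCtrl IgG2a tumour 3. For anti-PD1 in shCtrl, removing the GC-sloped or both kinds of library gave -0.21 and -0.11 for Cox7c, 0.0260 and 0.125 for Ndufa5, and -0.80 and -0.64 for Sdhd. Without both kinds mt-Nd4 became 0.20 between the lines under IgG2a, 0.0157 for anti-PD1 in shCtrl and -0.53 for the difference of effects. Other than where fewer genes or tumours entered, the cause was not tested. Of the other values recomputed, 634 gene values kept their direction and side of the threshold. The other 214 medians and 105 sums moved by less than their within-group SD between tumours, and 101 counts stayed equal or close. Direction was not checked for medians and sums. The nuclear median between the lines under IgG2a, for example, ran from -0.0335 to 0.0479 without 1 tumour. Over all genes DESeq2 called 449 under IgG2a and 1310 under anti-PD1 between the lines, against 255 and 870 with limma, and 244 for anti-PD1 in shMdk, against 5. Depth limits the scarce members: Cox6a2, Cox8b, Ndufa4l2 and mt-Nd6 had 176, 447, 478 and 682 reads over all 16 libraries. No paired analysis was possible because the labels give tumours no replicate numbers.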
